A study of Mus musculus with 14 samples.

Results

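MHC class I antigen presentation was described here through 10 genes of the deposited table of 46904 genes. They were taken by symbol: the class I heavy chains H2-K1 and H2-D1, the light chain B2m, the peptide transporter genes Tap1 and Tap2, the loading factor Tapbp, the inducible proteasome subunits Psmb8, Psmb9 and Psmb10, and the transcriptional activator Nlrc5. All 10 had values above 0 in each of the 14 libraries and passed the filter on low values.

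Libraries were made from poly(A) RNA of whole brain hemispheres of 12-week-old male mice on a C57BL/6J background, 48 h after a 20 min occlusion of the middle cerebral artery through a filament (MCAO, a mild transient stroke model). Mice were Cort+/+ or deficient in the gene of the neuropeptide cortistatin (Cort-/-), and each hemisphere was either the ischemic one (MCAO) or the healthy contralateral one (CL). There were 3 Cort+/+ CL, 3 Cort+/+ MCAO, 3 Cort-/- CL and 5 Cort-/- MCAO libraries, described by the submitters as independent biological replicates. The Cort+/+ MCAO libraries are numbered 2 to 4, and further replicates of that group were not analysed here. The study's methods say that replicates were kept where they grouped together, a choice that can narrow the spread within groups. Every group had undergone surgery, so the contralateral hemisphere is the control and no unoperated brain was analysed here.

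Almost every nucleated cell can display peptides from its own cytosol on class I molecules. The proteasome cuts proteins into peptides, the TAP1 and TAP2 transporter carries them into the endoplasmic reticulum, and tapasin (the product of Tapbp) holds empty heavy chain and beta-2-microglobulin dimers beside the transporter until a peptide binds. Interferons raise the whole set through the IRF factors and NLRC5, and exchange 3 catalytic proteasome subunits for inducible ones, whereas most cells of the uninjured brain hold low levels of heavy chain.

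The labels were checked first on the targeted gene. Cort was at 2.61 to 5.68 reads scaled to exon length and library size (RPKM) in the 6 Cort+/+ libraries and at 0 to 0.136 RPKM in the 8 Cort-/- libraries, without overlap. Reads counted on genes, as recovered from the RPKM values, numbered 25989673 to 43032293 a library. Fewer cells of a type and less RNA per cell cannot be told apart in such bulk tissue, and the same holds for more.

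Of the 10 genes, 7 lay within 1.35 Mb of chromosome 17 (GRCm39), the mouse H2 region. Tapbp (34134873 to 34148267, plus strand) came first and H2-K1 (34214987 to 34219321, minus strand) followed it. Psmb9, Tap1, Psmb8 and Tap2 stood next to each other within 34.87 kb, from 34400960 to 34435829. H2-D1 (35481691 to 35486475, plus strand) closed the stretch. B2m was on chromosome 2 (121977957 to 121983594, plus strand), and chromosome 8 held both Nlrc5 (95160984 to 95253900, plus strand) and Psmb10 (106662362 to 106665077, minus strand).

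Upstream sequence is shown for the heavy and light chain genes because these genes, which lie on separate chromosomes or far apart, varied together across libraries and because the class I promoter is the classical target of NLRC5. Sequences are the 250 bases before the RefSeq start (GRCm38.p6), written 5′ to 3′ on the gene's strand. Capitals mark letters that matched a kappaB site, an interferon-stimulated response element (ISRE) in either of 2 spacings, an X2 box core or a Y box. The windows are chr17:34000334-34000583 (minus strand) for H2-K1, chr17:35262844-35263093 (plus strand) for H2-D1 and chr2:122147437-122147686 (plus strand) for B2m.
H2-K1: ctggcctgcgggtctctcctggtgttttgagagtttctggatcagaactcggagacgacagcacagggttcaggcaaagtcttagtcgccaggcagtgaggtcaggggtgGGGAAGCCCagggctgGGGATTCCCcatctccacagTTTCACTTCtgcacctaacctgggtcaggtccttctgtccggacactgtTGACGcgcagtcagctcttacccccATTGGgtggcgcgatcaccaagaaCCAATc
H2-D1: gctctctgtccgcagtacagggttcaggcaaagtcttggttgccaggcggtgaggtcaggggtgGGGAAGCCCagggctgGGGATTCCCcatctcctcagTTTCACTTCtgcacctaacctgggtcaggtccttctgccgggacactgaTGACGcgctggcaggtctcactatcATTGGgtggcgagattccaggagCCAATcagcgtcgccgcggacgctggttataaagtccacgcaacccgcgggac
B2m: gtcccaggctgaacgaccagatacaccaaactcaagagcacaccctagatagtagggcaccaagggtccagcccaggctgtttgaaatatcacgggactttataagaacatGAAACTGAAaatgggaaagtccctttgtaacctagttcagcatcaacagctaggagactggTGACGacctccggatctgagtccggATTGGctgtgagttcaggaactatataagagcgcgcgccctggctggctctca

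RefSeq promoters were matched for 8 of the 10 genes (not Tap2 or Nlrc5), among 32851 promoter windows in all, and both strands were searched. The kappaB letters GGGANNNCC were found in H2-K1 and H2-D1 and in 15.8% of all windows. The ISRE letters GAAANNGAA were found in B2m and in 7.13% of all windows, and the shorter spacing GAANNGAAA in H2-K1 and H2-D1 and in 6.31%. The gamma-activated site TTCNNNGAA, an element of interferon-gamma responsive promoters, was found in Psmb8 and in 7.02% of all windows. The X2 core TGACG was found in 5 of the 8 genes (B2m, H2-D1, H2-K1, Psmb9 and Tap1) and in 17.8% of all windows. The Y box ATTGG was found in 6 of the 8 (the same 5 and Tapbp) and in 33.8%. The windows of Psmb9 (chr17:34187331-34187580, minus strand) and Tap1 (chr17:34187306-34187555, plus strand) overlap. Their X2 and Y matches are the same bases read from opposite strands, so each such site was counted for both genes.

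In H2-K1, H2-D1 and B2m the X2 core was followed by a Y box after exactly 20 bases. That spaced pair was present in 30 of the 32851 windows (0.0913%), belonging to 26 of 27025 genes. The spacing was not in the planned list of motifs and is the one these genes have. Their own match was therefore fixed in advance, and the share of windows is a description and no test. Besides H2-K1, H2-D1 and B2m, 1 of the 46 other pathway genes with a promoter carried it, the non-classical class I gene H2-M3. The H2-K1 and H2-D1 windows, lined up on their first kappaB match (140 and 186 bases before the start), were identical at 109 of 120 positions (90.8%). These matches are letters in a window and say nothing of whether a factor was bound.

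**Figure D1:**
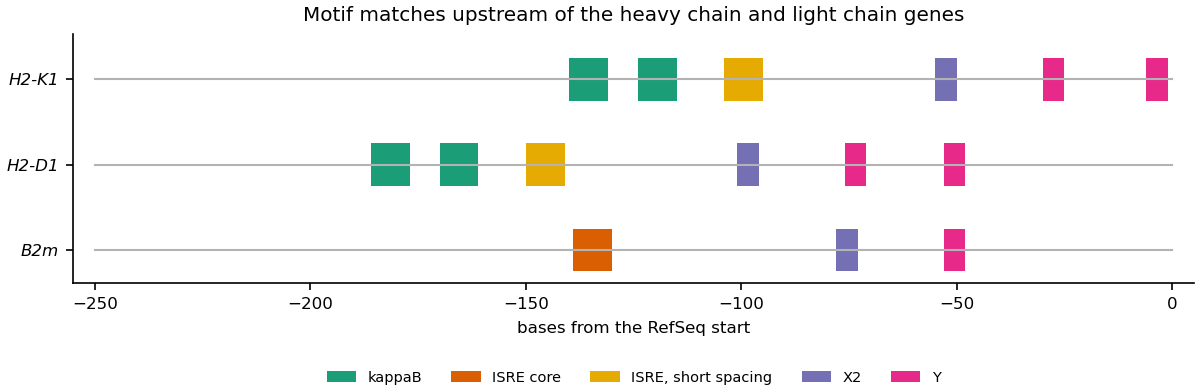
Matches to 5 motifs (coloured boxes) in the 250 bases before the RefSeq start of H2-K1, H2-D1 and B2m; the x axis gives bases from the start. The kappaB and short-spaced ISRE matches keep the same spacing in H2-K1 and H2-D1, and the X2 and Y boxes lie 20 bases apart in all 3 genes.

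The first question was what ischemia did to these genes in Cort+/+ mice. Each of the 10 had a higher mean in the MCAO than in the CL hemisphere, by 1.24-fold for Psmb10 to 4.72-fold for Nlrc5 as a ratio of mean RPKM, and 0 of 10 passed the limma test at an adjusted p of 0.05, or voom on the recovered reads. In 9 of the 10 genes every Cort+/+ MCAO library stood above every Cort+/+ CL library, a pattern shown by 5.73% of all 46102 genes tested. At an unadjusted p under 0.05, 9 of the 10 were higher, against 4.88% of all genes tested. That count rested on single libraries: it was 2 without Cort+/+ MCAO 3, 4 without Cort+/+ CL 2, and 5 without Cort+/+ CL 3 or with only the groups compared in the fit. Calls at an adjusted p were rare in Cort+/+ mice in this fit, with 0.00868% of all genes called higher. The paper, which tested counts rather than RPKM, reported many more genes raised in this comparison. It listed Nlrc5 among the genes changed in both genotypes, with the stronger rise in Cort-/- mice. It also gave MHC complexes among the terms enriched in Cort-/- mice only. The median log2 fold change of the 10 genes was 0.73, and 0.48 without Cort+/+ MCAO 3. Cort+/+ MCAO 3 was the highest of its group for 10 of 10 genes and Cort+/+ MCAO 4 the lowest for 10 of 10.

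In Cort-/- mice the same 10 genes were again higher in the MCAO hemisphere, and 5 rose past the threshold of the limma test with Benjamini-Hochberg adjustment: H2-K1, B2m, Psmb8, Psmb9 and Nlrc5. Of all genes tested, 1.34% were called higher in this comparison. Fold changes of mean RPKM ran from 1.28 for Psmb10 to 7.5 for Nlrc5, and the median log2 fold change was 1.05. In 8 of the 10 genes all 5 MCAO libraries stood above all 3 CL libraries, against 4.85% of all genes tested, and Tap2 and Psmb10 were the exceptions. The 5 calls did not hold under all settings. No call remained when any 1 Cort-/- CL library or Cort-/- MCAO 1, 4 or 5 was left out. By contrast, 9 of 10 genes were called without Cort-/- MCAO 3, 8 without Cort+/+ MCAO 3 and 9 by voom on the recovered reads. Calls over all genes tested, in either direction, moved too, from 792 as analysed. They numbered 133 to 322 without 1 Cort-/- CL library and 266 to 351 without Cort-/- MCAO 1, 4 or 5. They numbered 1191 without Cort-/- MCAO 3, 860 without Cort+/+ MCAO 3 and 1415 by voom. All groups share 1 estimate of the spread, so Cort+/+ libraries counted too. Of the 10 genes, 1 was called without Cort+/+ MCAO 2, and 2 without Cort+/+ CL 2, Cort+/+ CL 3 or Cort-/- MCAO 2. In these 4 fits, 571 to 629 of all genes were called.

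The 2 responses were also averaged over genotypes, a comparison added after the values were seen. With 8 MCAO and 6 CL libraries in the contrast, 9 of the 10 genes rose, all but Psmb10, with a median log2 fold change of 0.89 and 2.52% of all genes tested called higher. H2-K1, B2m, Psmb8, Psmb9 and Nlrc5 kept their call in this contrast whichever of the 14 libraries was left out. Only these 5 were called without Cort-/- CL 1 or 3, Cort+/+ CL 2 or 3, or Cort+/+ MCAO 2 or 3. Over all genes tested, 941 to 1224 were then called in either direction, against 1579 with all libraries.

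**Figure D2:**
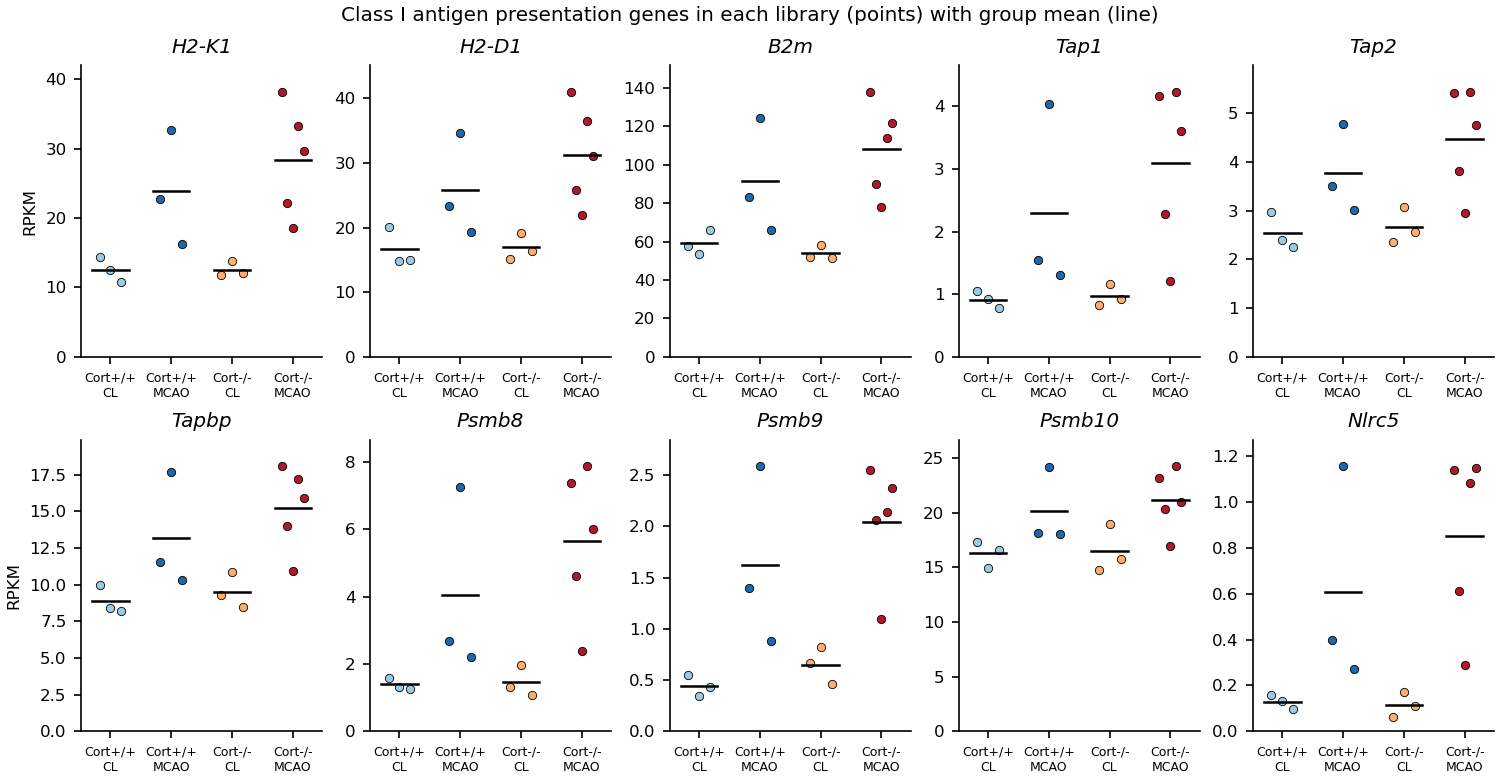
RPKM of each of the 10 genes (y axes, each from 0) in the 14 libraries, by genotype and hemisphere; points are libraries and lines are group means of 3, 3, 3 and 5 libraries. Every MCAO mean lies above the CL mean of its genotype, and the MCAO groups spread more widely than the CL groups.

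The heavy chains present the peptide. H2-K1 was at 14.4, 12.5 and 10.8 RPKM in the Cort+/+ CL libraries and at 22.7, 32.7 and 16.2 RPKM in the Cort+/+ MCAO libraries. Its Cort-/- CL libraries had 11.8, 13.9 and 12.0 RPKM, and its Cort-/- MCAO libraries had 38.2, 22.2, 18.5, 33.2 and 29.7 RPKM. All 8 ischemic values of H2-K1 lay above all 6 contralateral ones. The log2 fold change was 0.87 (95% confidence interval 0.29 to 1.44, adjusted p = 0.347 by limma) in Cort+/+ mice and 1.12 (0.61 to 1.64, adjusted p = 0.0343) in Cort-/- mice.

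H2-D1, the other classical heavy chain of this strain, was somewhat more abundant per length and had smaller fold changes. Its values were 20.1, 14.8 and 15.0 RPKM in Cort+/+ CL, and 23.3, 34.6 and 19.3 RPKM in Cort+/+ MCAO libraries. The Cort-/- mice had H2-D1 at 15.2, 19.2 and 16.5 RPKM in CL and at 41.0, 25.8, 22.0, 36.5 and 31.0 RPKM in MCAO libraries. The Cort+/+ groups overlapped, because Cort+/+ MCAO 4 lay below Cort+/+ CL 1. The log2 fold changes of H2-D1 were 0.60 (adjusted p = 0.542 by limma) and 0.85 (adjusted p = 0.0684). The ratio of H2-K1 to H2-D1 was 0.76 ± 0.073 (SD, n = 3) in Cort+/+ CL and 0.92 ± 0.071 (n = 3) in Cort+/+ MCAO libraries. The same ratio was 0.74 ± 0.027 (n = 3) in Cort-/- CL and 0.90 ± 0.048 (n = 5) in Cort-/- MCAO libraries, given as a description with no test. Reads could be misassigned between class I genes over a small part of each: 2.03% of the 100-base windows of H2-K1 transcripts and 2.53% of those of H2-D1 were shared with another gene.

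B2m, the invariant light chain that heavy chains need for normal surface levels, was the most abundant of the 10 genes. It was at 57.9, 53.5 and 65.8 RPKM in Cort+/+ CL and at 83.4, 124.2 and 66.3 RPKM in Cort+/+ MCAO libraries. B2m in Cort-/- mice was at 51.8, 58.4 and 51.7 RPKM in CL and at 137.9, 90.1, 77.8, 114 and 121.9 RPKM in MCAO libraries. All 8 ischemic values were above all 6 contralateral ones, although Cort+/+ MCAO 4 exceeded Cort+/+ CL 3 by little. The log2 fold change was 0.58 (0.10 to 1.06, adjusted p = 0.514 by limma) in Cort+/+ and 0.98 (0.55 to 1.4, adjusted p = 0.0295) in Cort-/- mice. Light chain per heavy chain changed little: B2m over the sum of H2-K1 and H2-D1 averaged 2.06 in Cort+/+ CL, 1.84 in Cort+/+ MCAO, 1.83 in Cort-/- CL and 1.84 in Cort-/- MCAO libraries.

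Tap1 and Tap2 encode the subunits of the peptide transporter. Tap1 was at 1.05, 0.92 and 0.78 RPKM in Cort+/+ CL and at 1.54, 4.04 and 1.31 RPKM in Cort+/+ MCAO libraries. Tap1 in Cort-/- mice was at 0.83, 1.17 and 0.93 RPKM in CL and at 4.17, 2.28, 1.22, 4.23 and 3.61 RPKM in MCAO libraries. The groups did not overlap in either genotype, but Cort-/- MCAO 3 cleared the highest contralateral library by little. Tap1 had log2 fold changes of 1.07 (0.11 to 2.04) in Cort+/+ and 1.45 (0.59 to 2.31) in Cort-/- mice, with adjusted p = 0.566 and 0.0964 by limma. Tap2 ranged from 2.25 to 5.43 RPKM over all libraries and had smaller log2 fold changes of 0.53 and 0.70 (adjusted p = 0.573 and 0.109 by limma).

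Tapbp, which bridges the transporter and the empty class I dimer, ranged from 8.19 to 18.1 RPKM. Its log2 fold changes were 0.53 in Cort+/+ and 0.66 in Cort-/- mice (adjusted p = 0.514 and 0.0992 by limma). Tapbp shares 20.9% of its exon bases with Zbtb22 on the same strand, so reads there cannot be assigned to 1 of them. Psmb9 and Tap1 overlap on opposite strands, over 743 exon bases, and the library kit marked strand.

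The inducible subunits PSMB8, PSMB9 and PSMB10 replace the constitutive subunits PSMB5, PSMB6 and PSMB7 and change which peptide ends the proteasome favours. Psmb8 was at 1.59, 1.31 and 1.27 RPKM in Cort+/+ CL and at 2.68, 7.27 and 2.20 RPKM in Cort+/+ MCAO libraries. Psmb8 in Cort-/- mice was at 1.32, 1.98 and 1.06 RPKM in CL and at 7.38, 4.61, 2.39, 7.88 and 6.02 RPKM in MCAO libraries. Every ischemic value was above every contralateral value. The log2 fold change of Psmb8 was 1.28 (0.31 to 2.26, adjusted p = 0.439 by limma) in Cort+/+ and 1.82 (0.95 to 2.70, adjusted p = 0.0415) in Cort-/- mice.

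Psmb9 was low, with 16 to 150 reads a library. Its values were 0.55, 0.34 and 0.44 RPKM in Cort+/+ CL, and 1.4, 2.59 and 0.88 RPKM in Cort+/+ MCAO libraries. Psmb9 in Cort-/- mice was at 0.67, 0.82 and 0.46 RPKM in CL and at 2.55, 2.06, 1.09, 2.14 and 2.37 RPKM in MCAO libraries. Again no ischemic library fell among the contralateral ones. Psmb9 had the lowest adjusted p of the 10 genes in Cort+/+ mice (log2 fold change 1.56, 0.79 to 2.34, adjusted p = 0.209 by limma), and it was called without Cort+/+ MCAO 4 (adjusted p = 0.0484). In Cort-/- mice its log2 fold change was 1.50 (0.81 to 2.19, adjusted p = 0.0359 by limma). Psmb10 was at 14.8 to 24.3 RPKM over all libraries and had the smallest fold changes of the 10 genes, with log2 fold changes of 0.30 and 0.35 (adjusted p = 0.654 and 0.224 by limma).

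Set against the subunits they replace, the inducible subunits shifted by different amounts. Psmb8 was at 2.21% ± 0.177 (SD, n = 3) of the Psmb5 level in Cort+/+ CL and at 5.87% ± 4.03 (n = 3) in Cort+/+ MCAO libraries. In Cort-/- mice it went from 2.26% ± 0.647 (n = 3) to 7.99% ± 3.02 (n = 5). Psmb9 against Psmb6 was at 0.574% and 1.89% in Cort+/+ and at 0.89% and 2.5% in Cort-/- mice. Psmb10 against Psmb7 was already at 22.5% and 24.9% in the contralateral hemispheres of Cort+/+ and Cort-/- mice and stood at 25.5% and 28.3% in the ischemic ones.

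The mean log2 ratio over these 3 pairs was -5.04 ± 0.109 in Cort+/+ CL and -4.04 ± 0.620 in Cort+/+ MCAO libraries, a 1.99-fold difference. A two-sided exact permutation test gave p = 0.1, the smallest possible with 3 against 3 libraries, so this design cannot pass 0.05. In Cort-/- mice the mean went from -4.78 ± 0.253 to -3.65 ± 0.402, 2.20-fold, with an exact permutation p of 0.0357, the smallest that 56 splits allow, and leaving out any 1 of these 8 libraries gave 0.0571 or 0.0952. Taken as a ratio of summed subunits, which weights the abundant Psmb10 most, the Cort-/- difference was 0.46 on the log2 scale with an exact permutation p of 0.0714. Between genotypes the exact permutation p was 0.3 in CL (difference 0.26) and 0.429 in MCAO hemispheres (difference 0.39). The constitutive subunits carry limits of their own: 18.7% of the 100-base windows of Psmb5 are shared with other genes. Psmb7 shares 46.8% of its exon bases with Nek6 on the opposite strand. The library kit marked strand, but the sources used here do not say whether counting used it. Psmb5, Psmb6 and Psmb7 had log2 fold changes of 0.12 to 0.17 in both genotypes, and none was called by limma.

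**Figure D3:**
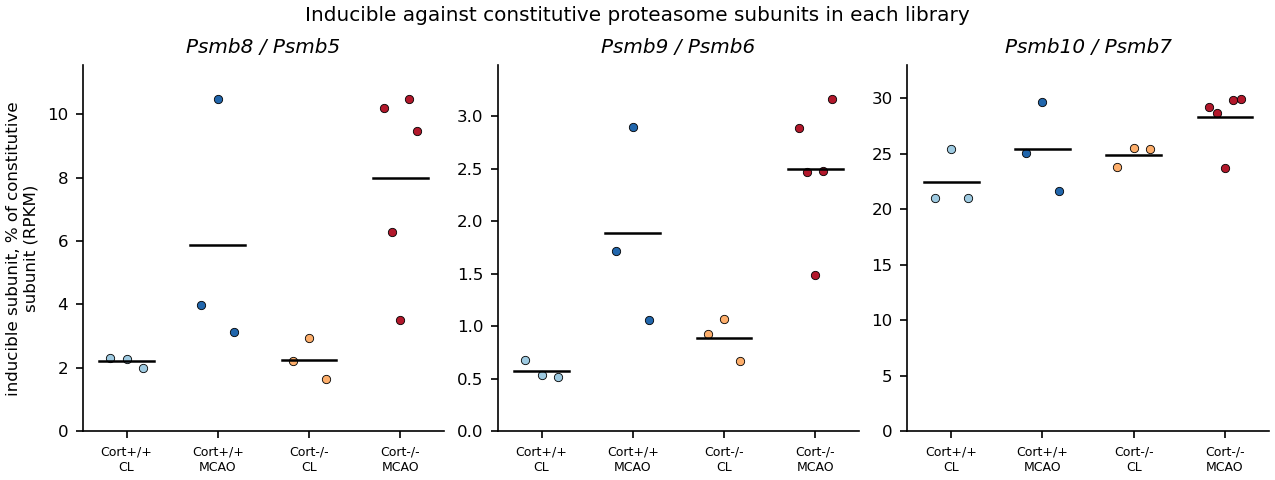
Inducible subunits as a percentage of the RPKM of the constitutive subunit they replace, in each library (points) with group means (lines) of 3, 3, 3 and 5 libraries; y axes start at 0. Psmb8 and Psmb9 rise from a few percent or less, whereas Psmb10 starts above 20% and its groups overlap.

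Nlrc5, the activator that drives class I promoters, had the lowest level of the 10 genes and, as a ratio of mean RPKM, the largest fold, with 16 to 385 reads a library. It was at 0.16, 0.13 and 0.10 RPKM in Cort+/+ CL and at 0.40, 1.16 and 0.27 RPKM in Cort+/+ MCAO libraries. In Cort-/- mice Nlrc5 was at 0.06, 0.17 and 0.11 RPKM in CL and at 1.14, 0.61, 0.29, 1.08 and 1.15 RPKM in MCAO libraries. The ischemic and contralateral values did not overlap. The log2 fold change, on the scale of RPKM plus 0.1, which understates changes this low, was 1.43 (0.37 to 2.5, adjusted p = 0.418 by limma) in Cort+/+ and 2.06 (1.11 to 3.01, adjusted p = 0.0359) in Cort-/- mice. Ciita, the related activator of class II genes, had 1 to 24 reads a library.

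**Figure D4:**
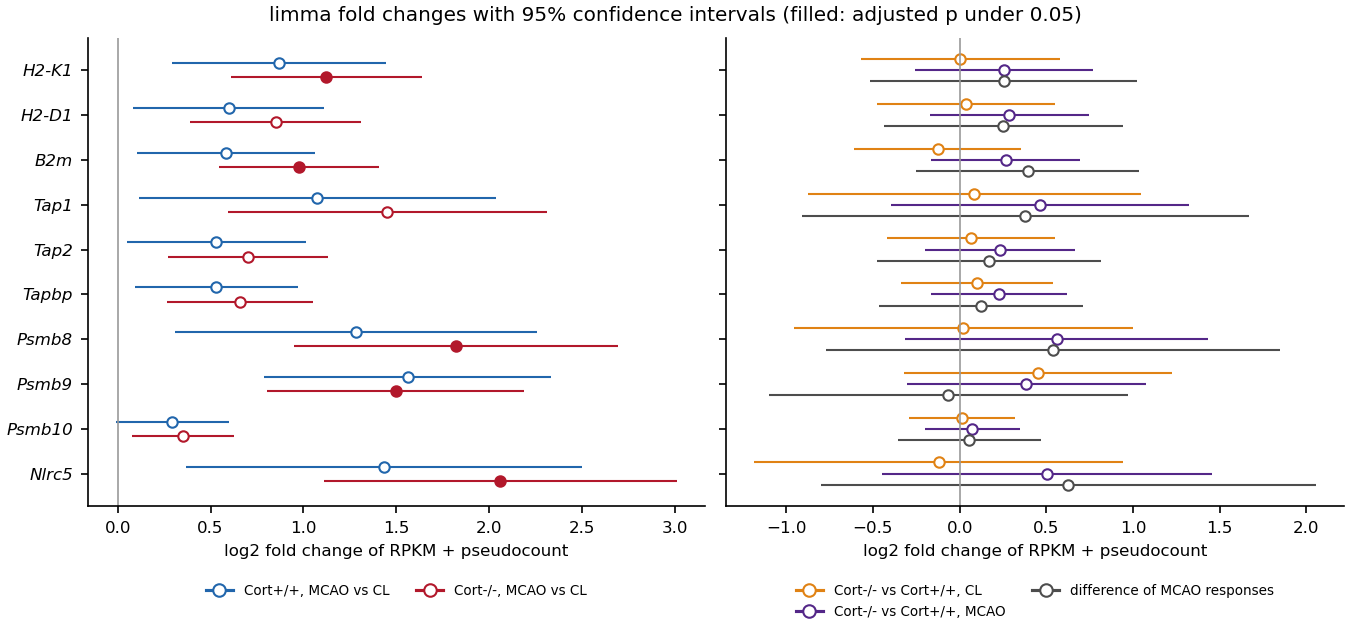
limma log2 fold changes of RPKM plus 0.1 (x axes) with 95% confidence intervals for the 10 genes, for MCAO against CL in each genotype (left) and for the genotype comparisons and the difference of the responses (right). Filled points have an adjusted p under 0.05 and are found in Cort-/- MCAO against CL, where 5 genes are filled; every interval on the right includes 0.

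The next question was whether the loss of cortistatin changed the set. In the contralateral hemispheres 0 of the 10 genes were called by limma or voom at an adjusted or an unadjusted p under 0.05, while 0.00217% and 1.94% of all genes tested were called higher at these thresholds. The median log2 fold change was 0.03, and no gene's groups separated. The largest contralateral difference was 0.45 for Psmb9 (95% confidence interval -0.32 to 1.22). The intervals were narrow for Psmb10 (-0.29 to 0.32) and wide for Nlrc5 (-1.19 to 0.94).

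In the ischemic hemispheres all 10 genes had a higher mean in Cort-/- than in Cort+/+ mice, by 1.05-fold for Psmb10 to 1.4-fold for Psmb8 and Nlrc5. None was called by limma or voom at an adjusted p, or at an unadjusted p under 0.05, when 0.00434% and 1.54% of all genes tested were called higher. The groups overlapped for every gene, and the median log2 fold change was 0.28. Single libraries set the size of this difference: the median was 0.52 without Cort+/+ MCAO 3, when 7 of the 10 genes were past an unadjusted p of 0.05 and 0 past an adjusted one. It was 0.08 without Cort+/+ MCAO 4 and 0.18 without Cort-/- MCAO 1. The intervals ran from -0.16 to 0.69 for B2m, from -0.26 to 0.77 for H2-K1, from -0.31 to 1.43 for Psmb8 and from -0.45 to 1.46 for Nlrc5. The shared direction is not 10 separate observations, since the genes moved together across libraries.

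The response to ischemia itself was compared between genotypes with an interaction term. Of the 10 genes, 9 had a larger log2 response in Cort-/- mice, with a median difference of 0.25, and Psmb9 had the reverse sign at -0.06. The median difference was 0.50 without Cort+/+ MCAO 3 (1 gene at an unadjusted p under 0.05), 0.38 without Cort-/- MCAO 3, 0.14 without Cort-/- MCAO 1, 0.13 without Cort+/+ CL 1 and 0.05 without Cort+/+ MCAO 4. With all libraries, none passed at an adjusted or unadjusted p under 0.05 by limma or voom, against 0.00217% and 1.5% of all genes called higher. The interval was -0.25 to 1.04 for B2m, -0.52 to 1.03 for H2-K1 and -0.80 to 2.05 for Nlrc5. The 5 calls in Cort-/- mice and their absence in Cort+/+ mice were therefore not shown to be a difference between genotypes, and the Cort-/- comparison held 5 rather than 3 MCAO libraries.

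Across libraries the 10 genes varied together. Each gene's log2 level correlated with the mean of the other 9 at a Pearson r of 0.945 (Psmb10) to 0.993 (Psmb8) over the 14 libraries. Over the 8 MCAO libraries alone r was 0.945 to 0.996. These coefficients are descriptions over libraries that share their hemisphere and genotype. Of 15054 other genes averaging 1 RPKM or more, the 8 whose log2 level was most like the mean of the 10 had r from 0.989 to 0.993 over the 14 libraries. They were Rigi, a sensor of viral RNA, Eif2ak2, the double-stranded RNA kinase PKR, Parp9, Lgals3bp, Lgals9, the interferon-induced GTPase Irgm1, the leukocyte tetraspanin Cd53 and Ifitm3, which blocks viral entry.

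Ischemic libraries differed from each other as a set. The 4 highest of the 8 were Cort-/- MCAO 1, 4 and 5 and Cort+/+ MCAO 3, for each of the 10 genes. Relative to the contralateral mean of its genotype, the median gene of the 10 was at 2.80-fold in Cort-/- MCAO 1 and 2.35-fold in Cort+/+ MCAO 3. It was at 1.37-fold in Cort-/- MCAO 3 and 1.23-fold in Cort+/+ MCAO 4, the lowest of their groups for 10 of 10 genes. These low libraries were also the shallowest of all, with 25989673 reads for Cort-/- MCAO 3 and 31206541 for Cort+/+ MCAO 4. Gfap, a protein of reactive astrocytes, was at 149 RPKM in Cort-/- MCAO 3 and 120 RPKM in Cort+/+ MCAO 4, and at 361 RPKM in Cort-/- MCAO 1 and 304 RPKM in Cort+/+ MCAO 3. The other astrocyte markers did not all move with Gfap. Of the 6 listed, Gfap and Aqp4 were called higher in Cort-/- MCAO against CL, where 1.34% of all genes tested were called higher. Aldoc, Gja1, Slc1a2 and Slc1a3 had log2 fold changes of -0.23 to -0.03 there and were not called. Of the 6, 2 were lower at an unadjusted p under 0.05, as were 2791 of all 46102 genes tested. The summed astrocyte level was 774 to 946 RPKM in CL and 841 to 1026 RPKM in MCAO libraries, with no marker at 0. The part of depth and of Gfap-expressing cells in this order was not tested.

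**Figure D5:**
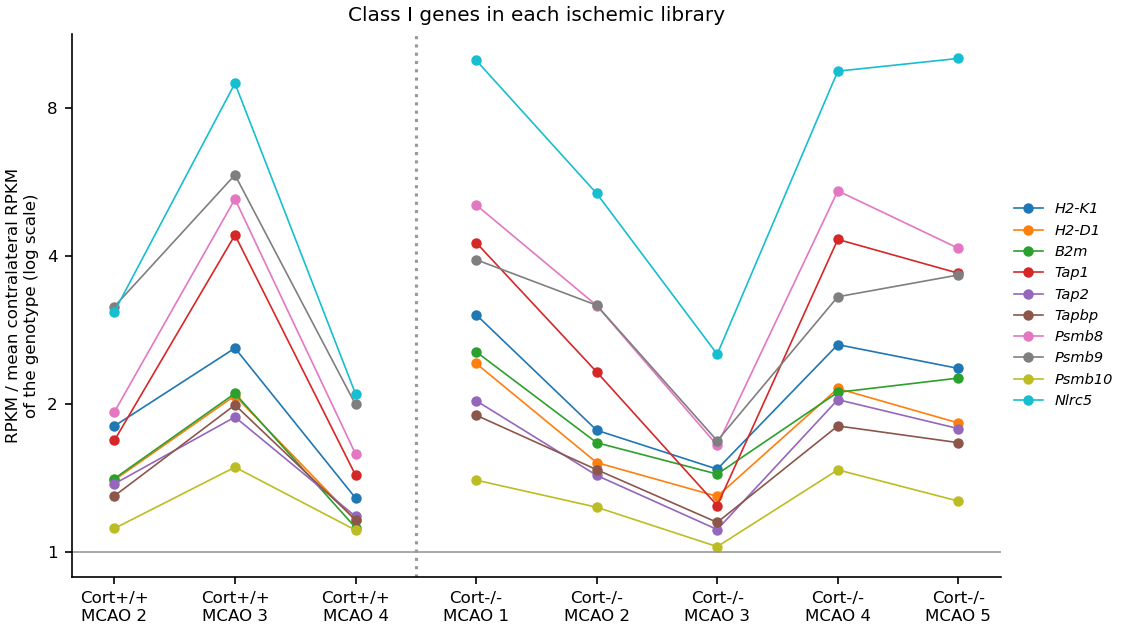
RPKM of each gene in each MCAO library divided by the mean contralateral RPKM of its genotype (y axis, log scale; 1 is no difference); lines join the values of a gene and imply no order of the libraries. The lines run nearly parallel, from a median of 1.23-fold in Cort+/+ MCAO 4 to 2.80-fold in Cort-/- MCAO 1.

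Contralateral libraries showed the same at a smaller scale. Cort+/+ CL 1 was the highest of its group for 9 of the 10 genes and Cort-/- CL 2 for 10 of 10. The same 2 libraries had Gfap at 132 and 110 RPKM, against 37.9 to 55.4 RPKM in the other 4 contralateral libraries. Without both, the count in Cort-/- mice fell from 5 called genes to 0, while the contrast averaged over genotypes called 8. Calls over all genes tested also fell, from 792 to 280 in Cort-/- mice and from 1579 to 1397 in the average.

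Microglia, the resident macrophages of the brain, are among its cells with the most class I transcript. Their markers, like the 10 genes, had higher means after ischemia. All 7 microglial markers were higher in the MCAO hemisphere in both genotypes. In Cort-/- mice 5 of them were called, where 1.34% of all genes tested were called higher. In Cort+/+ mice 0 of 7 were called, and 6 were higher at an unadjusted p under 0.05, against 4.88% of all genes tested. The summed level of the 7 was 128 to 162 RPKM in the 6 CL libraries and 178 to 372 RPKM in the 8 MCAO libraries, with no marker at 0. P2ry12 did not follow the library order of the 10 genes. It was at 10.3 RPKM in Cort-/- MCAO 3 and 10.1 RPKM in Cort+/+ MCAO 4. In the higher Cort-/- MCAO 1, Cort-/- MCAO 4 and Cort+/+ MCAO 3 it was at 10.3, 8.86 and 9.35 RPKM. Monocyte and macrophage markers summed to 4.57 to 13.7 RPKM in CL and 11 to 52.2 RPKM in MCAO libraries, with 0 of 6 called in either genotype. At an unadjusted p under 0.05, 4 were higher in Cort-/- and 2 in Cort+/+ mice, against 6.66% and 4.88% of all genes tested. In the average over genotypes, added after the values were seen, Lyz2 and Plac8 were called, against 2.52% of all genes tested called higher. How much of the class I levels came from these cells was not tested.

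T and NK cells, the cells that read class I, left few reads. The summed level of their 10 markers was 3.56 to 4.95 RPKM in CL and 1.05 to 3.11 RPKM in MCAO libraries. Nearly all of the CL sum was Cd4, which was called lower in Cort-/- mice (log2 fold change -1.53, adjusted p = 0.0332 by limma). The lower MCAO sum did not hold for most markers. By the sign of the log2 fold change, 8 of the 10 were higher and 2 lower in Cort-/- mice. In Cort+/+ mice 7 were higher and 3 lower. In each library 1 to 8 of the 10 markers were at 0. The defining genes were close to 0, with Cd3d at 12, Cd3e at 18, Cd3g at 13, Cd8a at 21, Cd8b1 at 12 and Ncr1 at 13 reads over all 14 libraries together. Of the receptor genes, 1 of 9 rose in Cort-/- mice, where 1.34% of all genes tested were called higher. In Cort+/+ mice 0 of 9 rose and 1 was higher at an unadjusted p under 0.05, against 4.88% of all genes tested. The gene called was Lilrb4a, an inhibitory receptor of myeloid cells, at 0.28, 1.13 and 0.28 RPKM in Cort-/- CL and 7.75, 3.62, 2.66, 9.70 and 5.21 RPKM in Cort-/- MCAO libraries. The log2 fold change of Lilrb4a was 3.24 (adjusted p = 0.0356 by limma) in Cort-/- and 3.33 (adjusted p = 0.212) in Cort+/+ mice. Trbc2, a T cell receptor constant gene, was at 6.94 to 13.4 RPKM in every library and was not called, with a log2 fold change of 0.28 in Cort-/- mice.

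The interferon genes themselves were barely read. Ifng had 3 reads and Ifnb1 had 1 read over all 14 libraries, so neither could be compared. Of the 20 tested genes of interferon signalling and of the transcription factors of class I promoters, 3 were called higher in Cort-/- mice. Irf8 and Ifnar2 were among them, and 1.34% of all genes tested were called higher. In Cort+/+ mice 0 of the 20 were called. There 4 were higher at an unadjusted p under 0.05, against 4.88% of all genes tested. Irf8, a factor of the myeloid lineage, had a log2 fold change of 1.19 (adjusted p = 0.0246 by limma) and Ifnar2, a type I interferon receptor chain, one of 0.42 (adjusted p = 0.0296).

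NLRC5 works with the RFX factors on the X box. Rfx5, Rfxank and Rfxap had log2 fold changes of -0.15, 0.09 and -0.08 in Cort-/- and -0.05, 0.09 and -0.11 in Cort+/+ mice, and none was called by limma. Jak1 and Ifnar1, the most abundant genes of the list, had log2 fold changes of 0.04 and 0.16 in Cort-/- mice and were not called. Irf1, an interferon-induced transcription factor, was at 0.73 (adjusted p = 0.0965 by limma) in Cort-/- and 0.51 (adjusted p = 0.599) in Cort+/+ mice on the log2 scale.

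Among 16 other class I genes, 3 rose in Cort-/- mice, where 1.34% of all genes tested were called higher. In Cort+/+ mice 0 rose, and 7 of 16 were higher at an unadjusted p under 0.05, against 4.88% of all genes tested. H2-T24 had a log2 fold change of 1.45 (adjusted p = 0.00759 by limma), H2-Q4 of 1.84 (adjusted p = 0.0218) and H2-M3, which presents formylated peptides, of 0.66 (adjusted p = 0.0327). H2-Q4 was at 1.21, 1.64 and 1.43 RPKM in Cort-/- CL and at 7.55, 4.30, 2.93, 6.26 and 7.29 RPKM in Cort-/- MCAO libraries. H2-T23, which encodes the ligand Qa-1 of the NKG2A receptor and was the most abundant of the 16, had a log2 fold change of 0.79 (adjusted p = 0.131), and H2-T22 one of 0.47 (adjusted p = 0.112). Reads of these close relatives may be split between them.

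Peptide supply and folding also depend on more general machinery. Of 6 genes of peptide trimming and loading, Erap1 and Pdia3 rose in Cort-/- mice, where 1.34% of all genes tested were called higher. None rose in Cort+/+ mice, where 3 of 6 were higher at an unadjusted p under 0.05, against 4.88% of all genes tested. Erap1, the aminopeptidase that trims peptides to length, had a log2 fold change of 0.62 (adjusted p = 0.0417 by limma), and Pdia3, the disulfide isomerase of the loading complex, one of 0.33 (adjusted p = 0.0482). The chaperones Calr and Canx, the most abundant of the 6, had log2 fold changes of 0.27 and 0.07 in Cort-/- mice and were not called. Of 7 constitutive proteasome and activator genes 0 were called in either genotype. At an unadjusted p under 0.05, 3 were higher in Cort-/- and 2 in Cort+/+ mice, against 6.66% and 4.88% of all genes tested. The interferon-inducible activator subunits Psme1 and Psme2 had log2 fold changes of 0.40 and 0.51 in Cort-/- mice (adjusted p = 0.127 and 0.0528 by limma), and Psme3, which belongs to another activator, had -0.04.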

How the data were processed

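Poly(A) RNA of brain hemispheres was made into libraries with an Illumina stranded mRNA kit and sequenced on an MGI platform. The authors deposited 1 table of RPKM for 46904 genes and 14 libraries, made with the GRCm39 build and the GENCODE M28 annotation per the paper's methods; the aligner and counter are not given in the sources used here. Groups and replicate numbers came from the sample titles.

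RPKM were analysed as log2(RPKM + 0.1) with limma 3.58.1 (R 4.3.3) in 1 model of 4 groups with a mean-variance trend, over 46102 genes above 0 in at least 2 libraries, with Benjamini-Hochberg adjustment at 0.05. Whole reads were recovered from the steps of the RPKM values, all 495656 values above 0 coming out whole within 0.01 reads, and gave the depths and a voom fit as an alternative. Replicate pairs differed by more than counting noise (chi-square per degree of freedom 5.82 to 26.3). The paper's methods call the replicates independent biological ones. The labels do not say whether CL and MCAO libraries of 1 number share a mouse, so they were treated as unpaired. Ratios were tested by exact permutation (scipy 1.17.1). Promoters were RefSeq windows (GRCm38.p6), and gene positions came from GENCODE M39 on GRCm39. The deposited RPKM compare genes per length, and depth limits the low genes.

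The 10 genes and all lists were chosen with earlier results of these data known. Named beyond the 10 were, of each pathway list, the 2 genes of highest mean RPKM and up to 3 called genes of largest fold, and the 8 genes most like the mean of the 10; others were named after their values were seen. The alternatives were another pseudocount, filter and scaling, voom, the groups compared alone, a replicate block and each library left out. Some list members are not reported here.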

Additional observations from a re-analysis of the deposited data

Results flagged for a closer look

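Each group of 4 or more libraries was searched for a value far from the rest with Dixon's criterion, which flags about 1 in 20 groups by chance. Only Cort-/- MCAO (n = 5) was large enough. None of the 10 class I genes was flagged there. H2-Q2 was low in Cort-/- MCAO 4 at 0.341555 RPKM (18 reads). Psme3 was high in Cort-/- MCAO 5 at 41.517 RPKM, within the range of the contralateral libraries. Ifnb1 had its single read, 0.0306361 RPKM, in Cort-/- MCAO 1.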

How the results depend on the processing

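The direction of the ischemic response of the 10 genes was the same in both genotypes under every alternative run. The number of genes called in Cort-/- MCAO against CL was 5 as analysed. It was 2 with a pseudocount of 1, 9 with voom, 0 with only the groups compared in the fit, 0 with the replicate block, 0 without the 2 contralateral libraries of high Gfap (chosen after seeing the data) and 0 to 9 with 1 library left out. In Cort+/+ mice it was 0, and 0 to 1 with 1 library left out. Averaged over genotypes it was 9, 0 with the replicate block and 5 to 10 with 1 library left out. The genotype comparisons and the interaction had 0 calls under every alternative run, the block included. The median difference of the responses between genotypes, 0.25, was -0.19 with the replicate block. The labels do not say that a number marks a shared mouse, and deviations of same-numbered libraries correlated at -0.24 to 0.32 between hemispheres and -0.41 to 0.13 between genotypes, so whether the numbers pair the libraries is not settled. The immunoproteasome ratio of Cort-/- mice, 1.13 on the log2 scale, was 0.46 as a ratio of sums (exact permutation p = 0.0714), 1.26 without the 2 contralateral libraries of high Gfap (p = 0.0952) and 1.00 to 1.30 with 1 library left out (exact permutation p = 0.0571 to 0.0952, the smallest possible there). The cause of these changes was not tested, beyond fewer libraries in the fits that leave some out. Depth limits Nlrc5 and Psmb9 (16 reads at the lowest) and all lymphocyte genes.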
